A study of Mus musculus with 6 samples.

Results

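The genes described are 8 RNA-binding proteins of the Y-box family, nuclear factor 45 (NF45) and stress granules: Ybx1, Ybx3, Ilf2, G3bp1, G3bp2, Caprin1, Tia1 and Tial1. They were taken by symbol through the gene names of the authors' deposited table, and all 8 were found among the 57010 genes of the count table, of which 16909 had a count. The genes were chosen by function and by their gene and transcript counts in this same comparison, so the differences between the groups below are a description of these libraries, and p-values beside them place each gene within the whole table rather than serve as independent evidence. RNA-seq of poly(A) RNA was made from MLE-12, an immortalised mouse line from lung epithelium, in 2 groups of 3 biological replicates. Cells of the I/R group were held in 1% oxygen for 12 h and reoxygenated for 4 h, a culture model of ischaemia and reperfusion. Those of the I/R + Dex group went through the same hypoxia and reoxygenation after 12 h with 10 µM dexmedetomidine, a sedative agonist of alpha-2 adrenergic receptors. Both groups were thus hypoxic and reoxygenated, and cells kept in normal oxygen were not analysed here. All libraries come from 1 cell line.

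Y-box proteins carry a cold shock domain with which they coat messenger RNA, and they package, store and stabilise it. ILF2, also called NF45, works in complexes with double-stranded RNA binding proteins that take part in splicing, export and stability of transcripts. Under stress that stops translation initiation, such as hypoxia, stalled messenger RNA gathers with G3BP1 and G3BP2, the nucleators of stress granules, their binding partner CAPRIN1, and the related proteins TIA1 and TIAL1 (TIAR). TIA1 and TIAL1 also bind U-rich sequence beside splice sites in the nucleus and favour inclusion of weak exons.

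Total counts per library were between 2333546 and 2941989. The cell identity rests on the labels. Of 7 epithelial markers, Krt8, Krt18, Cldn4 and Cldn7 were at 0 in all 6 libraries and none of the others exceeded 5 counts, so that the list summed to between 1.53 and 2.72 CPM (counts scaled to library size) in I/R against between 0 and 1.16 under I/R + Dex. Of 9 alveolar type II markers, Sftpa1, Sftpb, Sftpc, Sftpd and Nkx2-1 were at 0 throughout, and the sums were between 8.50 and 20.3 CPM in I/R against between 6.0 and 17.4 in I/R + Dex. All 8 fibroblast markers had counts, with sums between 514 and 597 CPM in I/R against between 497 and 654 under I/R + Dex, most of it Vim. Of 5 leukocyte markers, 2 were at 0 throughout, and the list gave between 17.2 and 25.3 CPM in I/R against between 21.1 and 27.1 in I/R + Dex. The part of other cell types in the results below was not tested, and in bulk RNA fewer cells of a type cannot be told apart from less RNA per cell.

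Some of the stretches by which transcripts of Ilf2, Ybx3 and Tial1 differ are shown first, because the counts of these transcripts are given below. They were read from GENCODE vM21 transcripts (GRCm38) with the authors' transcript identifiers. All 49 transcripts of the 8 genes that the authors' deposited table lists have the same length there and in the reference. Capitals mark the stretch present in one transcript and missing from the other, with flanking transcript sequence in lower case, 5′ to 3′ on the gene's strand.
Ilf2 intron 11, kept in Ilf2-202 and spliced out of Ilf2-201: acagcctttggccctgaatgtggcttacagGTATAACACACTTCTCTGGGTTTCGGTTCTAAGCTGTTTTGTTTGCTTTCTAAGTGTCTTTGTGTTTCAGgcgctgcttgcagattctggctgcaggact
Ybx3 cassette exon, present in Ybx3-201 and skipped in Ybx3-202: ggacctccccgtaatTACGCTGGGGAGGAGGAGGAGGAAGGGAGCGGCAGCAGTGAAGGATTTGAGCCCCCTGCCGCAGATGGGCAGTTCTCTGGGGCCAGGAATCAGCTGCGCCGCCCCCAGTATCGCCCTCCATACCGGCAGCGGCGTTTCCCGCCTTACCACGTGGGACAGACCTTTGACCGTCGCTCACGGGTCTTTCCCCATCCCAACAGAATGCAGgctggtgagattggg
Tial1 exon extension, present in Tial1-202 and absent from Tial1-203: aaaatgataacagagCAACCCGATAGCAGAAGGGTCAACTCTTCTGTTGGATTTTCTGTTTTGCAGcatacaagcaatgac
Tial1 extra exon of Tial1-204, its coding part and the stop that ends the frame: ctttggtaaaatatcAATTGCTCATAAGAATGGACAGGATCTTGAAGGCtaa

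The Ilf2 intron has 70 bases, opens with GT and closes with AG, and 38.6% of its bases are G or C. The Ybx3 exon has 207 bases, or 69 triplets, and 63.8% G or C. It keeps the reading frame, as does the Tial1 extension of 51 bases (17 triplets). The extra exon of Tial1-204 has 377 bases, of which the first 34 are coding before the frame ends in the taa shown. Beyond the extension, Tial1-202 has 1626 bases that Tial1-203 lacks, and Tial1-203 has 61 bases of its own. Against Tial1-204, Tial1-202 has stretches of 51 and 2503 bases of its own. The shares of these transcripts therefore do not measure the shown stretches alone.

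Ilf2 (chr3:90383433-90395686, plus strand, GRCm39, as spanned by the authors' transcripts) gave the clearest contrast of the 8 genes, and it lay in the transcripts, not in the gene total. The gene total was 431, 526 and 384 counts in I/R against 418, 336 and 389 counts under I/R + Dex, or 163 ± 16.4 against 156 ± 8.08 CPM (SD, n = 3), with a log2 fold change of -0.070 (95% interval -0.32 to 0.18). Ilf2-201, the coding transcript of 14 exons (chr3:90383454-90395686), held 430, 520 and 373 of these counts in I/R against 0, 0 and 0 under I/R + Dex. Ilf2-202, annotated as a retained-intron transcript of 13 exons (chr3:90383433-90395270), had 0, 3 and 0 counts in I/R against 400, 173 and 386 under I/R + Dex. The groups did not overlap in the counts assigned to either transcript, while those of the gene total overlapped.

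As a share of the gene, Ilf2-201 made up 99.8%, 98.9% and 97.1% in I/R. In I/R + Dex, 0 counts allow, at 3 counts, a share of up to 0.718%, 0.893% and 0.771%, which covers counting error only. Ilf2-202 made up 0%, 0.57% and 0% in I/R against 95.7%, 51.5% and 99.2% under I/R + Dex. The second I/R + Dex library stood apart, with 162 of its counts (48.2%) on Ilf2-205, a shorter retained-intron transcript (chr3:90387986-90393695) with 14 counts in the first I/R + Dex library and 0 in the other four. Over all 5 retained-intron transcripts of Ilf2 together, the share was 0.23%, 1.14% and 2.86% in I/R, against 100% in each I/R + Dex library. Ilf2-205 ends before intron 11, so this class share does not measure retention of that intron alone. Summed over libraries, Ilf2-201 had 1323 counts in I/R against 0 under I/R + Dex. With a floor of 3 counts per library in place of 0, that is 132-fold lower per total count. Ilf2-202 had 3 counts in I/R against 959 under I/R + Dex, a ratio of 355 per total count with a 95% exact counting interval from 121 to 1726. The floor and the interval cover counting error of the assigned counts only. They cover neither the spread between libraries nor the division of shared reads.

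Ilf2-201 and Ilf2-202 have 1611 bases in common, so reads of most of the gene fit both. Ilf2-202 has 91 bases of its own, the 70 of the intron and 21 at the 5′ end, and Ilf2-201 has 416 of its own at the 3′ end. The sources used here do not say how shared reads were divided between them, and the reads themselves were not analysed here. The annotation gives Ilf2-202 no coding sequence. Read from the start codon of Ilf2-201, its frame runs through the intron and meets a stop 127 bases after the first intron base, in what follows the intron, after 311 codons in place of 390. That stop lies 146 bases before the last exon junction, with 2 junctions after it. Whether Ilf2-202 is translated or decays was not measured.

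**Figure D1:**
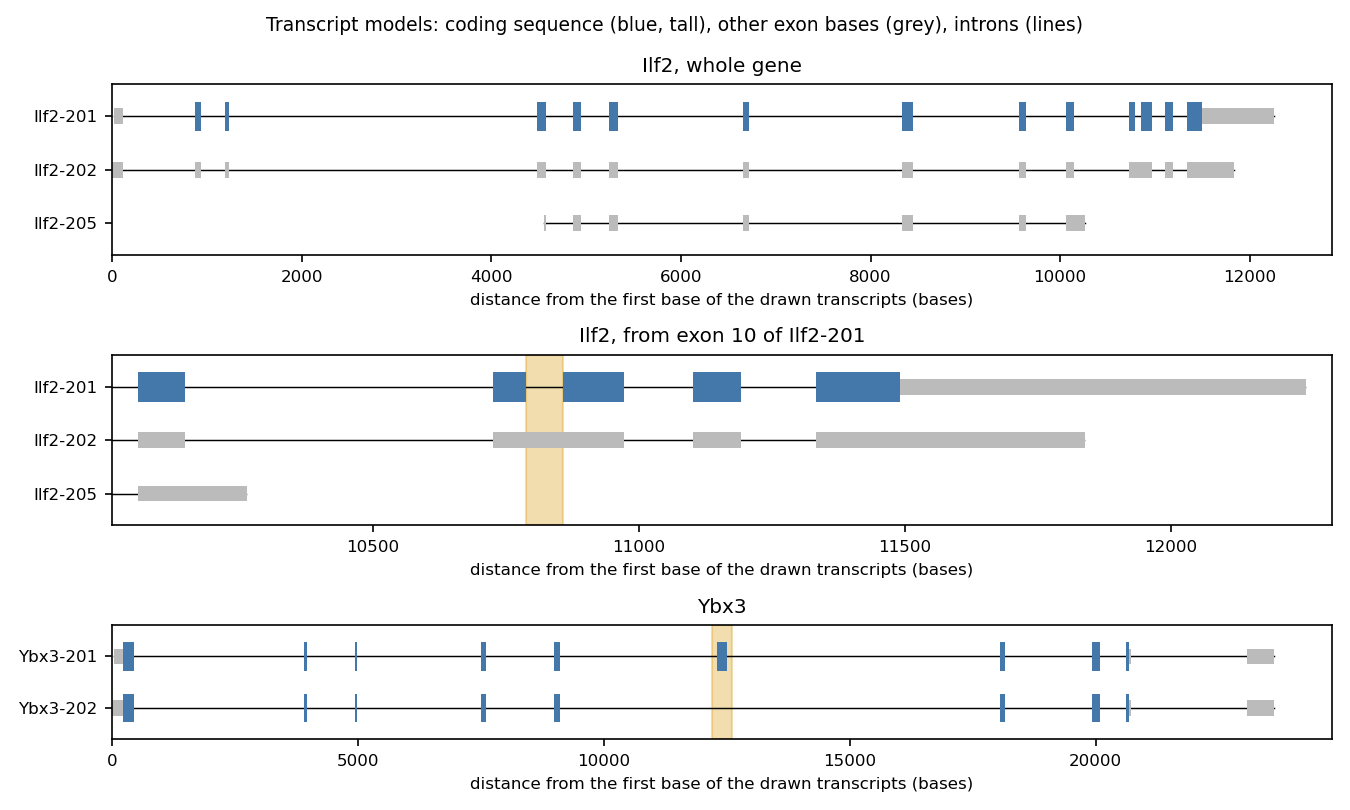
Exons of the main Ilf2 and Ybx3 transcripts, drawn to scale against the distance in bases from the first base drawn, with coding sequence in blue and tall, other exon bases in grey and introns as lines. The shaded band marks the 70-base intron kept in Ilf2-202 in the middle panel and, widened for visibility, the 207-base exon skipped in Ybx3-202 in the bottom panel.

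The usage of transcripts within each gene was tested across all genes with edgeR's diffSpliceDGE, which asks whether the transcripts of a gene change by different factors. It called 27 of 1717 genes (1.57%) at an adjusted p under 0.05. Ilf2 was the 1 called among the 7 members tested, with an adjusted p of 4.17e-04 over Ilf2-201 and Ilf2-202. These were the 2 of its transcripts that passed the filter on low counts. Each passed only through the group where it was high, Ilf2-201 in I/R and Ilf2-202 in I/R + Dex. The call therefore restates the counts above and is no independent support. Over 10 alternative settings the adjusted p of Ilf2 ranged from 4.17e-04 to 0.0996, and 1 setting missed the threshold. G3bp2 came next with an adjusted p of 0.773, and the other 5 were at 1.00. In simulated counts the usage test recovered 56.25% of swaps of the 2 largest transcripts where these differed 2-fold to under 8-fold. It recovered 100% at 8-fold or more, with 6 false calls. A member without a call is therefore not shown to be unchanged in usage. G3bp1 was not tested, since 1 transcript passed the filter. For the test of single transcripts, 28 of the 63 counted transcripts of the 8 genes passed the filter. EdgeR called 0 of 9882 (0%), with 289 at an unadjusted p under 0.05. In simulated counts this test recovered 0% of 2-fold and 1% of 4-fold changes, so the lack of calls does not show a lack of change. In the measured counts Ilf2-201 had the lowest adjusted p of this edgeR test, 0.0702, and Ilf2-202 one of 0.291. DESeq2 called 74 of the 34258 counted transcripts of all genes. Among them were 2 of the 63 of the 8 genes, Ilf2-201 (adjusted p = 2.59e-11) and Ilf2-202 (adjusted p = 2.04e-07). EdgeR without its filter called 12 of the 34258, among them Ilf2-201 (adjusted p = 0.00251). Ilf2-201 and Ilf2-202 are also marked significant in the authors' deposited table, with log2 fold changes of -12.95 and 8.47 and adjusted p of 4.36e-16 and 1.65e-11. They are the 2 marked significant among the 49 transcripts of the 8 genes in the authors' deposited table, against 104 of the 18021 transcripts it lists (0.577%). All these calls come from the same 6 libraries by which the genes were chosen, and are no independent support. With one group at or near 0, such fitted folds depend on how each tool treats zeros and are no measure of size.

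How far transcripts changed place was measured as the share moved, the summed absolute difference between 2 sets of transcript shares divided so that 100 percentage points mean a complete exchange. Between the group means, 99.3 points of Ilf2 moved. The distance was between 98.9 and 99.8 points in all 9 pairs of libraries from different groups and between 1.14 and 48.3 points in the 6 pairs within a group. Every distance between groups exceeding every distance within a group held for 17 of 2179 genes with at least 100 counts in every library and at least 2 counted transcripts (0.78%), and for Ilf2 alone among the 8. Over those 2179 genes the median share moved was 4.61 points, 58 genes moved by 50 points or more, and Ilf2 was 1 of 2 that moved by 90 or more. Large exchanges were common among replicates: 24.2% of the genes had 2 libraries of the same group at least 50 points apart.

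The transcripts of other genes whose share pattern was nearest to that of Ilf2-201 over the 6 libraries, by root mean square difference among 10595 transcripts, were Tax1bp1-201, Tcf20-201 and Fkbp1a-209. Tax1bp1-201, a coding transcript of an autophagy receptor gene, lay 2.68 points away, with 100% in each I/R library against 3.88%, 1.81% and 3.88% in I/R + Dex. Tcf20-201, a coding transcript of a transcriptional coregulator gene, lay 13.0 points away, with 97.6%, 98.1% and 70.2% in I/R against 5.59%, 0% and 16.1% under I/R + Dex. Fkbp1a-209, a retained-intron transcript of the gene of the immunophilin FKBP12, lay 17.4 points away, with 99.8%, 71.6% and 86.8% in I/R against 25.9%, 0% and 17.5% under I/R + Dex.

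**Figure D2:**
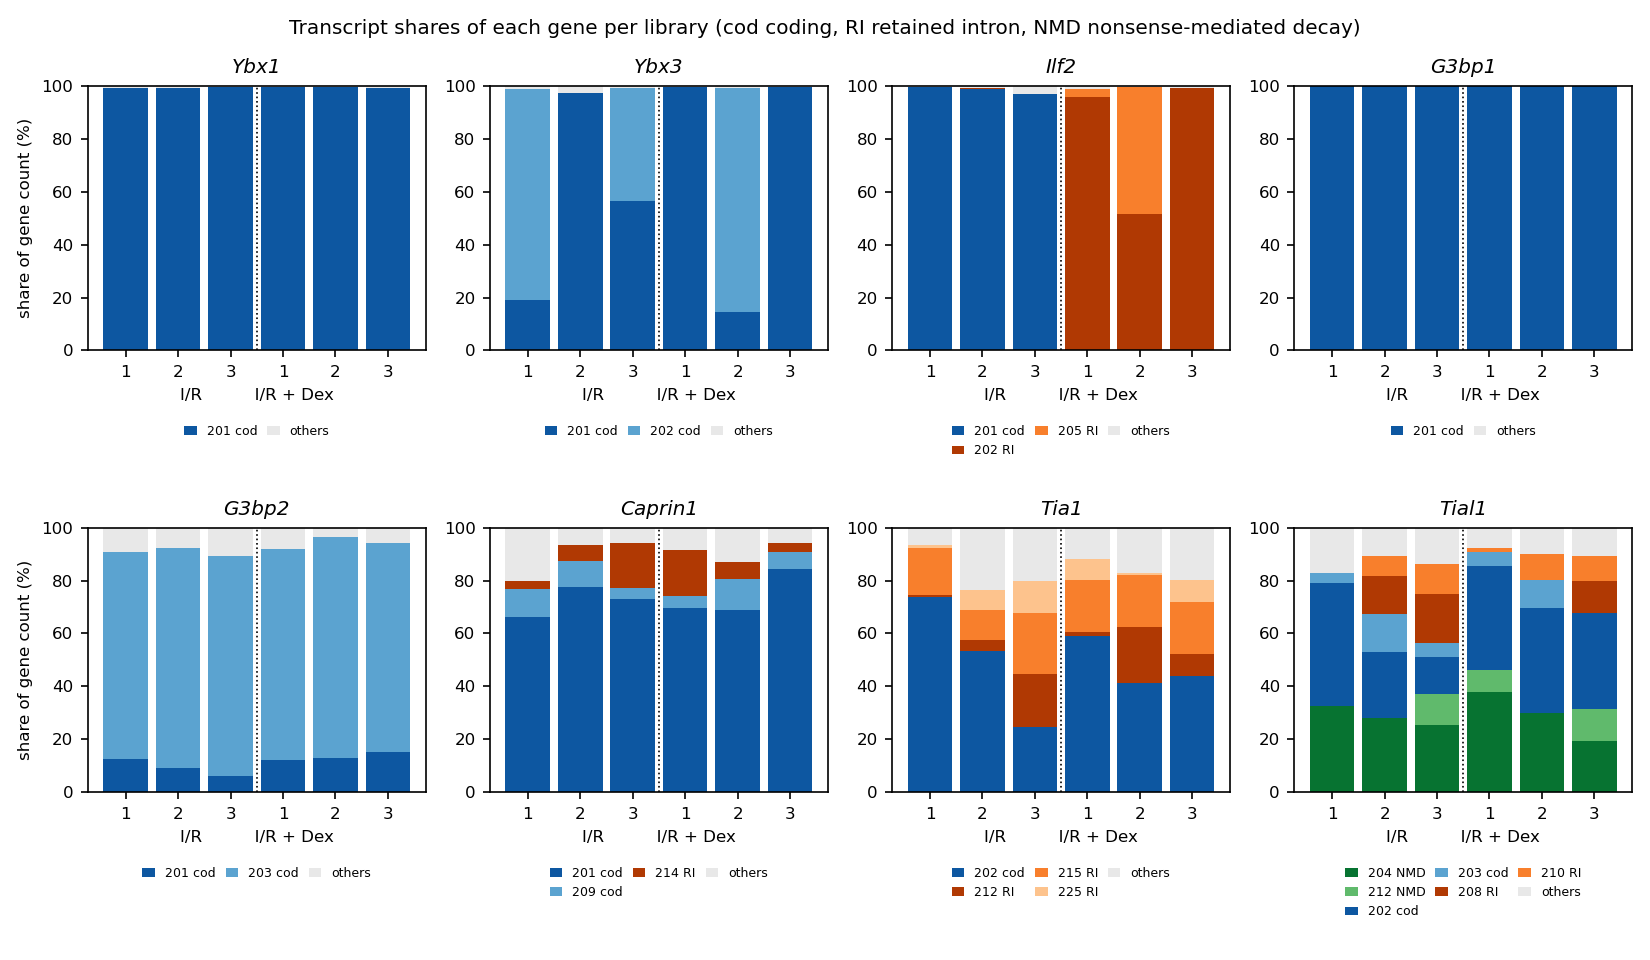
Share of each gene's count (percent, vertical axis) on its transcripts in the 6 libraries (bars, I/R left and I/R + Dex right of the dotted line). Transcripts with at least 10% in a library are coloured, blue for coding (cod), orange for retained intron (RI) and green for nonsense-mediated decay (NMD), and grey holds the others. The counts of Ilf2 lie mostly on 201 in I/R and on 202 and 205 in I/R + Dex, while those of Ybx3 alternate between 201 and 202 within both.

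Among the 8 genes, 63 transcripts had a count, 18 of them coding, 27 with a retained intron and 6 subject to nonsense-mediated decay, and 22 reached 10% of their gene in at least 1 library. The shares of 2 of these 22 (9.09%), Ilf2-201 and Ilf2-202, did not overlap between the groups, against 6.94% of 5331 such transcripts of all genes. A share of at least 10% in 1 library beside 0 counts in another occurred for 7 of the 22 (31.8%), against 27.5% of the 5331. Both member percentages are near those of all genes.

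Ybx3 (chr6:131341818-131365439, minus strand), the Y-box protein also known as DBPA or ZONAB, was the member with the largest difference in gene total. It had 1600, 1594 and 1322 counts in I/R against 1953, 1720 and 1899 under I/R + Dex, or 606, 545 and 506 against 749, 749 and 782 CPM. All I/R + Dex libraries were above all I/R libraries. The means were 553 ± 50.4 and 760 ± 19.2 CPM (SD, n = 3), a log2 fold change of 0.46 (SE 0.078, 95% interval 0.28 to 0.64), or 1.38-fold. Its unadjusted p was 5.48e-04 and its adjusted p in edgeR was 0.369, which is not past the threshold. DESeq2 gave the same log2 fold change with an adjusted p of 0.00832, and over 11 alternatives the adjusted p ranged from 0.00832 to 1.00 and the log2 fold change from 0.40 to 0.54. Groups without overlap were found for 1 of 8 members (12.5%) and for 9.13% of the 7412 genes tested, 4.56% of them higher in I/R + Dex.

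The transcripts of Ybx3 did not follow the groups. Ybx3-201, with the cassette exon, had 307, 1549 and 749 counts in I/R against 1946, 248 and 1890 under I/R + Dex. Ybx3-202, without it, had 1275, 0 and 563 counts in I/R against 3, 1461 and 4 under I/R + Dex. The share of Ybx3-201 was therefore 19.2%, 97.2% and 56.7% in I/R against 99.6%, 14.4% and 99.5% under I/R + Dex, so that each group held a library under 20% and a library over 97%. Between group means 13.5 points moved, while 2 libraries of a group were up to 85.2 points apart, a distance larger than that of 88.8% of the 2179 genes. Without the second I/R + Dex library the share moved was 41.9 points, without the second of I/R it was 33.3, and without the third or first of I/R + Dex it was 1.79 or 1.82. Both transcripts are coding, and together they held between 97.2% and 99.8% of the gene. They share 1646 bases, with 207 only in Ybx3-201 and 38 only in Ybx3-202.

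Ybx1 (chr4:119135178-119151801, minus strand) encodes YB-1, the main cytoplasmic mRNA-packaging protein, and was by far the highest of the 8. Its level per length was 5497 FPKM as the mean of all 6 libraries, the fifth highest of 16536 genes with a value. Gene totals were 26030, 22454 and 23947 counts in I/R against 24490, 18561 and 22723 under I/R + Dex, or 8906 ± 1117 against 8947 ± 749 CPM (SD, n = 3). The log2 fold change was 0.0067 (95% interval -0.24 to 0.26) with overlapping groups. Ybx1-201, the full coding transcript, held between 99.3% and 99.6% in every library, so that 0.142 points moved between the groups. A further 7413 counts, 5.09% of the sum with Ybx1, lay on 3 processed pseudogenes with at least 90% identity over most of the coding sequence, and 6026 of them on Gm11560 at 95.04% identity. The sources used here do not say how reads that fit both Ybx1 and a copy were counted.

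**Figure D3:**
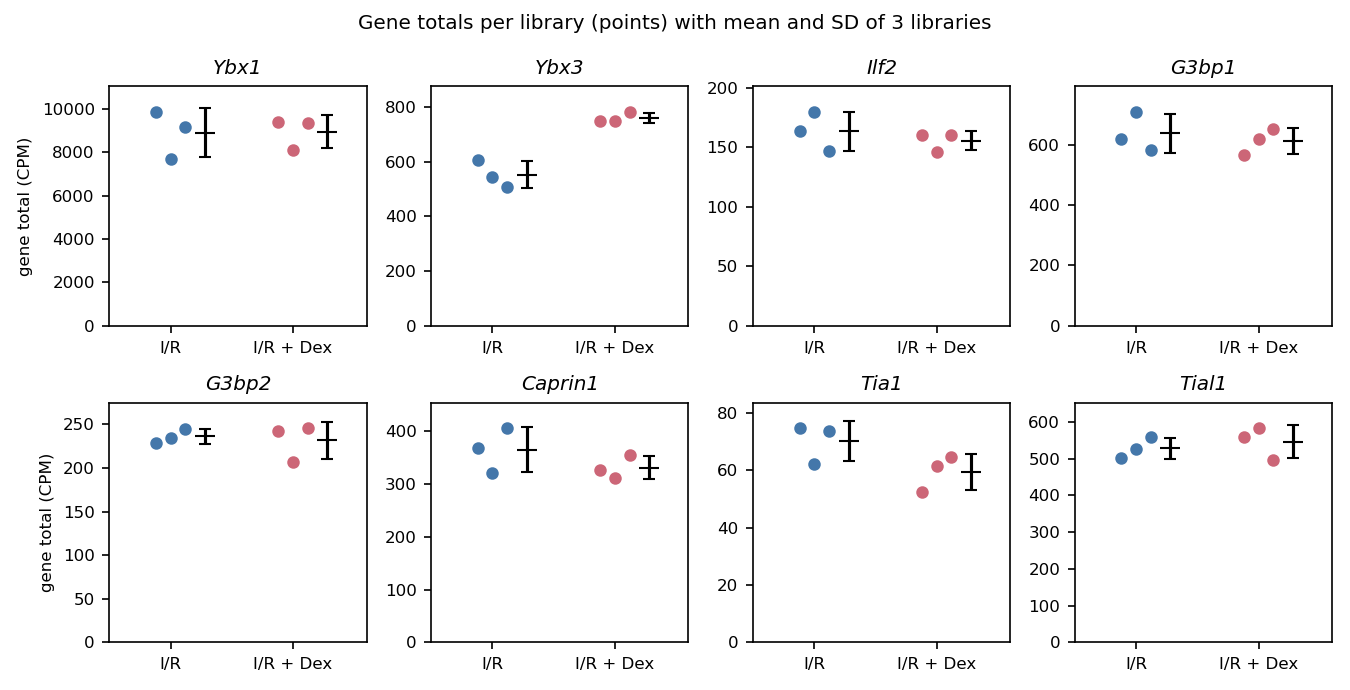
Gene totals in CPM (vertical axis from 0) of the 8 genes, with 1 point per library and the mean with SD of the 3 libraries of a group beside them. Ybx3 is the gene whose groups do not overlap, at 553 ± 50.4 CPM in I/R against 760 ± 19.2 CPM in I/R + Dex.

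G3bp1 (chr11:55360511-55395664, plus strand), the principal stress granule nucleator, had 1636, 2072 and 1518 counts in I/R against 1476, 1423 and 1583 under I/R + Dex. That is 637 ± 65.2 against 613 ± 43.3 CPM (SD, n = 3), with a log2 fold change of -0.056 (95% interval -0.27 to 0.16). Its highest library was the second of I/R and the others of both groups lay among each other. G3bp1-201, the single coding transcript counted, held between 99.9% and 100% in every library. Another 461 counts (4.53% of the sum) lay on 2 processed pseudogenes, 456 of them on Gm5913 at 97.99% identity, and how reads that fit both were counted is again not stated.

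G3bp2 (chr5:92200005-92231578, minus strand), its paralogue, had 604, 686 and 640 counts in I/R against 631, 475 and 596 under I/R + Dex, or 236 ± 8.25 against 232 ± 21.4 CPM (SD, n = 3), with a log2 fold change of -0.029 (95% interval -0.25 to 0.19). G3bp2-203 was the leading transcript with 78.3%, 83.2% and 83.4% in I/R against 79.7%, 83.8% and 78.9% under I/R + Dex. G3bp2-201, which encodes the same protein and differs outside the coding sequence, held 12.6%, 9.04% and 5.94% in I/R against 12.0%, 12.8% and 15.3% under I/R + Dex. The coding transcripts together held 93.2%, 95.8% and 91.9% in I/R against 95.9%, 97.1% and 96.0% under I/R + Dex, groups that did not overlap by a narrow gap, with the rest on the retained-intron transcript G3bp2-208 at 41, 29 and 52 against 26, 14 and 24 counts. Coding shares without overlap were seen for 3 of the 8 members, Ilf2, Ybx3 and G3bp2 (37.5%), and for 7.45% of 2149 genes. The differences of Ybx3 and G3bp2 were small, from a mean of 98.4% to 99.6% and from 93.6% to 96.3%, and ran opposite to that of Ilf2.

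Caprin1 (chr2:103593286-103627994, minus strand), the G3BP-binding protein of stress granules and neuronal RNA granules, had 971, 938 and 1058 counts in I/R against 852, 715 and 859 under I/R + Dex. Scaled, these were 365 ± 42.3 and 331 ± 21.5 CPM (SD, n = 3), with overlapping groups and a log2 fold change of -0.14 (95% interval -0.38 to 0.10). Its full coding transcript Caprin1-201 held 66.3%, 77.7% and 73.2% in I/R against 69.6%, 69.0% and 84.3% under I/R + Dex. Caprin1-214, a short retained-intron transcript, ranged from 2.78% to 17.5% and Caprin1-209, a shorter coding one, from 4.16% to 11.5%, each with its low and high libraries spread over both groups. Between group means 4.58 points of Caprin1 moved. Leaving out 1 library gave 3.59 points without the first of I/R, 6.19 without the second and 9.61 without the third, and 7.37, 8.62 and 6.23 without the first, the second and the third of I/R + Dex.

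Tia1 (chr6:86381201-86410387, plus strand), the prion-like stress granule protein and splicing regulator, was the lowest of the 8 per length, at 23.6 FPKM as the mean of all libraries. It had 197, 182 and 192 counts in I/R against 137, 141 and 157 under I/R + Dex. After scaling, the libraries were at 74.7, 62.3 and 73.6 CPM against 52.6, 61.4 and 64.7 CPM, so that the groups overlapped in 1 I/R library. The log2 fold change was -0.24 (SE 0.15, 95% interval -0.59 to 0.12). Tia1-202, the main coding transcript, carried 145, 97 and 47 counts in I/R against 81, 58 and 69 under I/R + Dex, or between 24.5% and 73.6% of the gene. Retained-intron transcripts, 11 in number, took 22.3%, 28.02% and 67.2% in I/R against 38.7%, 44.0% and 49.0% under I/R + Dex, with both the lowest and the highest library in I/R. Single transcripts of Tia1 rest on few counts: Tia1-212 ranged from 2 to 39 and Tia1-225 from 1 to 23. Between group means 11.3 points moved, with 23.5 without the third I/R library, 19.5 without the first, 5.78 without the second and 17.9 without the first of I/R + Dex.

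Tial1 (chr7:128041501-128063441, minus strand), which encodes the TIA1 relative TIAR, had 1323, 1542 and 1457 counts in I/R against 1458, 1339 and 1205 under I/R + Dex. The means were 529 ± 28.4 and 546 ± 44.8 CPM (SD, n = 3), with a log2 fold change of 0.047 (95% interval -0.15 to 0.24). It had 6 transcripts with 10% or more in a library, the most of the 8 genes, among 10 with a count. Tial1-202, coding and with the 51-base extension, held 46.3%, 25.1% and 14.1% in I/R against 39.2%, 39.9% and 36.3% under I/R + Dex. Tial1-203, coding and without it, held 3.78%, 14.3% and 5.28% in I/R against 5.35%, 10.6% and 0% under I/R + Dex. Tial1-204, annotated as subject to nonsense-mediated decay, with a frame that ends in the extra exon shown above, held 32.6%, 28.02% and 25.5% in I/R against 37.7%, 29.7% and 19.2% under I/R + Dex. Transcripts of the decay class together made up between 29.96% and 46.3% of Tial1 in every library, and coding ones between 19.4% and 50.5%. Tial1-208, with a retained intron, had 0, 218 and 271 counts in I/R against 0, 0 and 146 under I/R + Dex, and Tial1-212, of the decay class, had 0, 0 and 168 against 125, 0 and 149. Both were thus at 0 and above 140 counts within each group. The share moved was 14.4 points between group means, below the 44.3 points between 2 libraries of the same group. Without the first I/R library the share moved was 22.7 points.

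**Figure D4:**
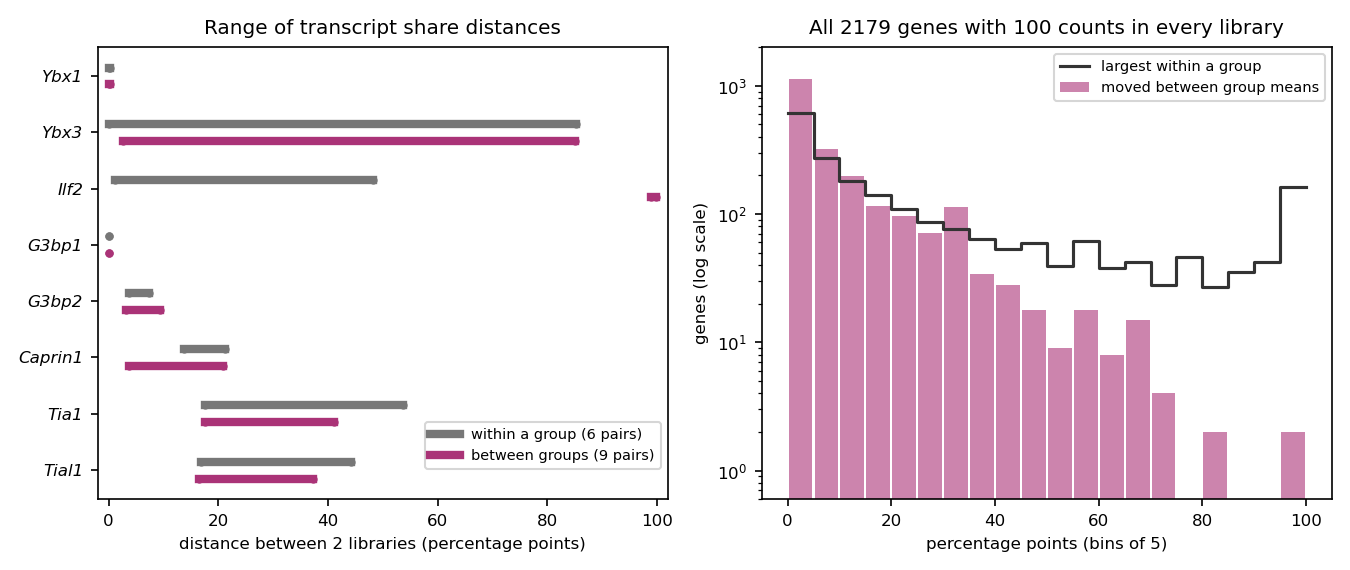
Left, the range of the distance between the transcript shares of 2 libraries (percentage points) for each gene, grey for the 6 pairs within a group and purple for the 9 pairs between groups. Right, the number of genes (log scale) per 5 points for the share moved between group means (bars) and the largest distance within a group (line) over 2179 genes; Ilf2 is the member whose 2 ranges are apart, at 98.9 to 99.8 against 1.14 to 48.3 points.

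Set in order by level per length, as the mean over 6 libraries of the summed transcript FPKM, Ybx1 at 5497 was followed by Ybx3 at 367, Tial1 at 294, Caprin1 at 122, Ilf2 at 96.3, G3bp1 at 93.0, G3bp2 at 61.2 and Tia1 at 23.6. Library values ran from 284 to 435 FPKM in Ybx3 and from 231 to 387 in Tial1, and from 85.9 to 150 in Caprin1, 71.0 to 147 in Ilf2 and 83.8 to 107 in G3bp1, so that neighbours in this order overlapped from Ybx3 to Tial1 and from Caprin1 to G3bp1. The FPKM of Ilf2 was 80.0 ± 9.06 in I/R against 113 ± 29.5 under I/R + Dex (SD, n = 3), although its CPM groups overlapped. FPKM divides by transcript length, and the highest value, 146.5 FPKM, was that of the library with 48.2% on the 677-base Ilf2-205.

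All 8 gene totals passed the filter on low counts. EdgeR called 0 of the 8 members, against 5 of 7412 genes tested (0.0675%), with 251 genes at an unadjusted p under 0.05, Ybx3 among them as the single member. DESeq2 called 14 of the 16909 genes with a count, with Ybx3 as the 1 of 8 members. The median log2 fold change of the 8 was -0.042, against -0.0052 over all genes tested, and 3 of 8 were above 0. The intervals exclude, for every member but Ybx3, a rise of the gene total by more than 1.19-fold, and for every member but Tia1 a fall below 0.767 of the I/R level.

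**Figure D5:**
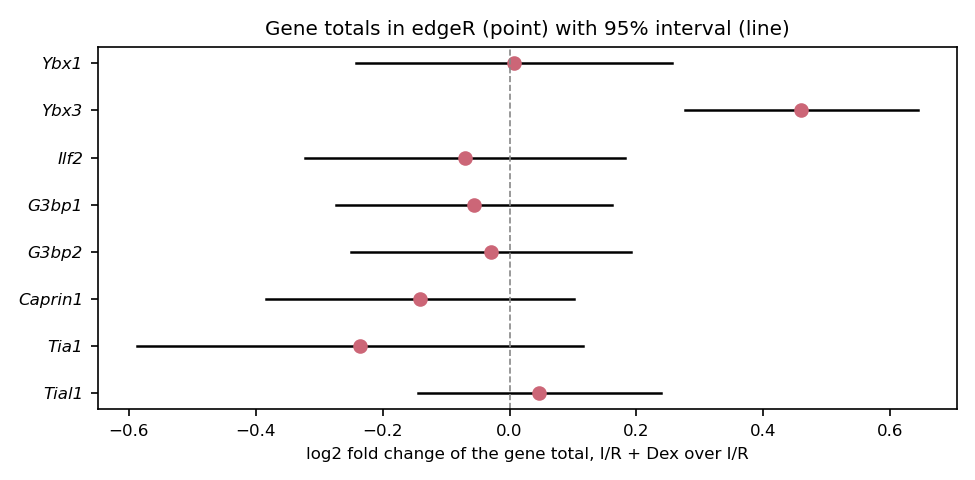
Log2 fold change of the gene total (horizontal axis, I/R + Dex over I/R) of the 8 genes in edgeR, as a point with its 95% interval. The interval of Ybx3, 0.28 to 0.64, lies above 0, and those of the other genes include 0.

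Genes that work with the 8 proteins showed no called change in either direction: 0 rose and 0 fell in any of 6 lists by edgeR, which share a few genes such as Upf1, with all adjusted p at 1.00, against 0.0675% of all genes called. Of 36 other genes of stress granule assembly and regulation, 35 were tested, with a median log2 fold change of 0.026 and 2 at an unadjusted p under 0.05. These were Pabpc4, a cytoplasmic poly(A)-binding protein, at 18.0 ± 2.79 against 29.3 ± 7.68 CPM, and Atxn2l, a stress granule component, at 604 ± 24.4 against 669 ± 12.3 CPM (SD, n = 3). Of 15 NF45 partners and double-stranded RNA binding proteins, 13 were tested, with a median of -0.18. In the same list Stau1, which binds double-stranded RNA in 3′ ends and starts decay, was at 153 ± 1.77 against 126 ± 12.2 CPM (unadjusted p = 0.0328), and Adar, which edits adenosine in double-stranded RNA, at 22.3 ± 1.92 against 32.9 ± 8.97 CPM. Of 15 Y-box relatives and coding mRNP partners, 9 were tested, with a median of -0.043 and none at an unadjusted p under 0.05; the lowest p belonged to Hdlbp (vigilin), with a log2 fold change of -0.15, and Igf2bp3, an mRNA-binding protein, with -0.29.

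Of 19 regulators of splicing at U-rich elements and TIA1 relatives, 17 were tested, with a median of -0.057 and none at an unadjusted p under 0.05. The lowest p belonged to Zfp36l1, which binds AU-rich elements, with a log2 fold change of -0.92 (SE 0.43), and Hnrnpc, which competes for U-rich tracts, with -0.25 (SE 0.13). Processing body and mRNA decay proteins had 17 of 19 tested and a median of -0.0087, with Dcp2, the decapping enzyme, at -0.90 (SE 0.60) and Upf1, the helicase of nonsense-mediated decay, at -0.37 (SE 0.31). The nonsense-mediated decay and exon junction list had 12 of 15 tested and a median of -0.066. Its lowest p were those of Casc3, an exon junction component, at -0.26 (SE 0.18), and Upf2, the partner of UPF1, at 0.15 (SE 0.10). None of these list genes was past the threshold, and the list medians are descriptions. In simulated counts the gene test recovered 35% of 2-fold changes, so a gene without a call is not shown to be unchanged.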

How the data were processed

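Poly(A) RNA-seq counts of 6 libraries were used, grouped by their labels. Gene and transcript counts are whole numbers deposited by the authors without normalisation, per the file headers and values. FPKM per transcript were made by the authors, per the file headers, and summed here per gene. The authors' deposited table gives log2 fold changes, p-values and transcript coordinates and lengths. HISAT2 2.1.0, StringTie 2.2.4 and DESeq2 1.30 with GRCm39 stand in the submitters' processing notes, and the sources used here give no counting step. The reference held here is on another build and gave only transcript structure, names and sequence.

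The members and lists were chosen with earlier results of these data known. Tests on counts used edgeR 4.0.16 under R 4.3.3 (filterByExpr, TMM, robust quasi-likelihood, Benjamini-Hochberg threshold 0.05), and transcript usage with diffSpliceDGE; standard errors were derived from the F statistic. The scripts were tested on simulated data. There the gene test recovered 35% of 2-fold and 76% of 4-fold changes, with 10 false calls among 7412 genes. The transcript test recovered 0% and 1% of them, with 0 false calls. Alternatives were DESeq2 1.42.0, its size factors in edgeR, no filter, a replicate block, gene totals with copies added, Simes p-values, shares of FPKM, a minimum of 30 counts and leaving out each library. Copies came from blastn 2.17.0 with coding sequences (90% identity, 200 bases, 50% coverage). All 8 members are named, with transcripts of at least 10% in a library; of each list, members past the threshold or the 2 with the lowest p were named. Total counts per library ranged from 2333546 to 2941989, and intervals on counts and floors of 3 counts cover counting error only, since molecules were not tagged.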

Additional observations from a re-analysis of the deposited data

How the results depend on the processing

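With DESeq2 size factors in edgeR and with the copies added, 5 genes were called as before. DESeq2 itself called 14 of 16909 genes with 1 member, Ybx3 (log2 fold change 0.46, adjusted p = 0.00832). It called 74 of 34258 transcripts with 2 of the members, Ilf2-201 (adjusted p = 2.59e-11) and Ilf2-202 (adjusted p = 2.04e-07). Without a filter 12 of the 34258 transcripts were called, with 1 of the members (Ilf2-201, adjusted p = 0.00251), and usage calls numbered 17. Leaving out 1 library gave 0 to 4 gene calls with 0 members, 0 to 3 transcript calls with 0 members, 53 to 71 usage calls with 1 member, Ilf2, throughout (adjusted p 0.00371 to 0.0334), and 58 to 69 genes with separated shares, with 1 member, Ilf2. How many genes and transcripts were tested with a library left out is not given here, so no share over all stands beside these calls. For separated shares, fewer pairs have to be apart once a library is left out. Why usage calls also exceeded the 27 of the main setting was not tested. Omitting 1 library turned the sign of small gene differences. Ybx1 ran from -0.0899 to 0.0912, Ilf2 from -0.141 to 0.00369 and G3bp1 from -0.117 to 0.0278. G3bp2 ran from -0.0731 to 0.0448 and Tial1 from -0.0036 to 0.111. Ybx3 kept its sign, from 0.40 to 0.54, with adjusted p from 0.122 to 0.801. With FPKM shares in place of count shares, the share moved was 13.2 in place of 4.58 points for Caprin1, 22.1 in place of 11.3 for Tia1, 0.302 in place of 0.142 for Ybx1 and 0.0897 in place of 0.0080 for G3bp1. Leaving out 1 library gave 5.78 to 23.5 points for Tia1, 3.59 to 9.61 for Caprin1, 12.0 to 22.7 for Tial1 and 2.59 to 5.90 for G3bp2. The cause of these differences was not tested.

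Replicate numbers are shared by the groups, and the labels do not say whether same-numbered libraries belong together. Their deviations had correlations of 0.010, 0.030 and -0.024 over 3944 genes. With 3 libraries per group, these values cannot tell whether the libraries were paired. With the number as a replicate block, 0 genes and 2 genes by usage were called, 0 of them members, and Ilf2 had an adjusted p of 0.0996. Members with under 200 counts, such as Tia1, leave single transcripts with wide counting error.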
